A study of Homo sapiens with 6 samples.

Results

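Intron clusters were the PAR-CLIP binding sites that the deposited cluster tables place in an intron, and were taken as every row of the G20, G35, G45 and HuR tables whose transcript location read intron. There were 962129 such clusters among 1717084 in the 5 libraries, with 5915 in G20, 18626 in G35, 13880 in G45, 22810 in HuR replicate 1 and 900898 in HuR replicate 2. The Total table was not selected by location, so 32105 of its 200602 clusters were taken because they shared at least 1 bp, on the same strand, with one of these intron clusters. Of the Total clusters, 31453 overlapped an intron cluster of HuR replicate 2, so values for Total describe mostly the places of those clusters. A cluster is a stretch of genome covered by reads that carry T-to-C conversions, and its values are whole-number counts of reads, of conversion locations (distinct T positions that were converted) and of conversion events (T-to-C mismatches summed over reads).

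All libraries came from HEK293, a line of human embryonic kidney cells, grown with 4SU, crosslinked with UV light at 365 nm and digested with RNase T1. The background libraries were made from cells with FLAG-tagged GFP, a protein with no RNA target of its own, pulled down with the FLAG M2 antibody, and from gel slices near 20 kDa (G20), 35 kDa (G35) and 45 kDa (G45). The HuR libraries were pulled down with the same antibody and have 2 replicates, whereas each slice is a single library. Total was RNA from lysates treated the same way with no immunoprecipitation, digested with proteinase K and depleted of rRNA. Library totals ran from 6187300 reads (G35) to 38644636 reads (G20), and nothing in the labels says that the HuR replicates were separate cultures, so differences between libraries may be technical.

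Introns are removed from pre-mRNA in the nucleus by the spliceosome, which recognises the 5' splice site, a branch point and, just before the 3' splice site, a tract rich in pyrimidines. HuR (ELAVL1) is a mostly nuclear RNA-binding protein of the ELAV family that shuttles to the cytoplasm and binds U-rich and AU-rich sequence, both in 3'utr and in introns. 4SU is incorporated in place of uridine and is read as C after crosslinking, so conversions need a T in the genomic sequence. RNase T1 cuts after G, which places G at the ends of RNA fragments.

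The sequences below are examples of T-rich intron clusters from each library, picked for their conversion locations. They were the leading 2 clusters per library, chosen after the values were seen, among those of at most 30 nt with 25 or more reads and at least 50% T that lay in a GENCODE intron. Clusters with over 1.5 events per read, or with events above 50% of reads times locations, were left out of this choice. Sequences are those of the deposited tables on hg19, 5' to 3' on the transcribed strand, with runs of 3 or more T in capitals.
G20, BRPF1, chr3:9781894-9781911 (+): tgtggTTTgttaagttgg
G20, DLGAP1, chr18:3692076-3692092 (-): atagctcTTTcttgatt
G35, HMCN1, chr1:186056789-186056808 (+): attcttgTTTgagtgtcatg
G35 and G45, C1orf101, chr1:244671166-244671190 (+): TTTactatagcTTTgtactgtactt
G45, ZNF607, chr19:38194227-38194255 (-): ctactacTTTacTTTTTTTctctaTTTag
HuR replicate 1, ERC1, chr12:1313345-1313369 (+): ctaaccttctctaTTTTTcttagtg
HuR replicate 1, HKR1, chr19:37843454-37843480 (+): cTTTTTaataTTTactcTTTccgtggc
HuR replicate 2, ZNF644, chr1:91458600-91458628 (-): ctacttcTTTTTTcTTTTTaTTTTTTaag
HuR replicate 2, U2SURP, chr3:142729810-142729837 (+): cTTTTTTcTTTTactcTTTTTTTTctag

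These sites had 2 or 3 conversion locations in the slices, 12 or 13 in HuR replicate 1 and 18 or 19 in HuR replicate 2. They were picked for their locations from tables of very different size, so these numbers are not a comparison, and slice members with less T had more, such as 9 at LIMCH1 and 8 at ZNF229. ZNF607, a zinc finger gene, held a site that was read in every library, with unscaled counts of 11 reads in G20, 37 in G35, 30 in G45, 37 in HuR replicate 1, 1457 in HuR replicate 2 and 9 in Total. Its events per read were 0.364, 0.135 and 0.567 in G20, G35 and G45, compared to 1.08 and 1.19 in the HuR replicates. The site therefore had fewer than 1 event per read in every slice and more than 1 in both HuR replicates. The ERC1 site had 131 reads in HuR replicate 1, 2343 in replicate 2 and 110 in Total, but 1 read in G20, none in G35 and 1 in G45. Events per read there were 1.05 and 1.16 in the HuR replicates and 0.373 in Total. The U2SURP site, in a gene for a protein of the U2 snRNP, had 133 reads in HuR replicate 2, 7 in replicate 1 and 3 in G20, with none in G35, G45 or Total. C1orf101 had 138, 241, 339, 244 and 372 reads in the pulldowns and none in Total, and events per read lay between 0.967 and 1.13. Its events were 48.3% and 49.3% of reads times locations in G35 and G45, just under the limit of 50%, and the origin of its reads was not tested. DLGAP1 had only 2 events on 35 reads in G20, and none on 59 reads in G35. HMCN1 had 26 reads in G35 and at most 2 in any other library.

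The first comparison asked how much of each library's cluster table was intron. Of all HuR clusters, 58.0% were intron in replicate 1 and 59.5% in replicate 2, whereas the shares in G20, G35 and G45 were 15.2%, 27.4% and 24.1%. Both HuR replicates lay above all 3 slices, with a mean of 58.8% ± 1.11 (SD, n = 2) against 22.2% ± 6.27 (SD, n = 3). An exact two-sided permutation test over libraries gave p = 0.2, the smallest that 2 against 3 libraries allow, so no comparison of HuR with the slices can reach 0.05. Of 7 such comparisons, those that did not overlap had an adjusted p of 0.35 in the exact test. In reads the order was the same, with intron clusters holding 1.15%, 14.8% and 13.5% of the cluster reads of G20, G35 and G45 and 23.4% and 52.3% of those of the HuR replicates.

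The HuR replicates did not hold this share alike once clusters were deep. Among clusters with 25 or more reads, introns held 13.2%, 18.6% and 18.8% in the slices, 23.6% in HuR replicate 1 and 60.8% in HuR replicate 2. The share in HuR replicate 1 thus moved close to those of G35 and G45. Minimum conversion locations differed too, since the HuR replicate 1 table started at 2 locations, the minimum in the study's definition of a cluster. By contrast, 70.4% to 74.6% of slice members and 44.4% of HuR replicate 2 members had only 1, short of that definition. With 2 or more locations required throughout, the shares were 13.4%, 27.3%, 24.04%, 58.0% and 64.5%.

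**Figure D1:**
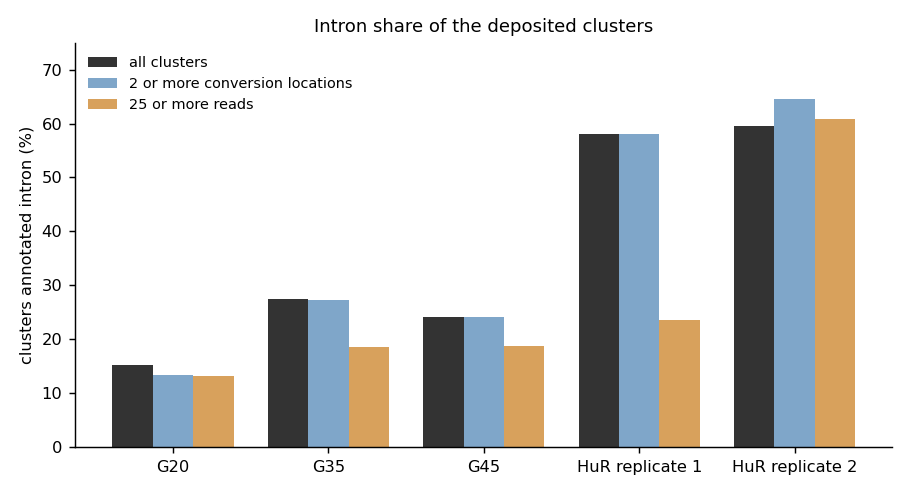
Bars give the percent of deposited clusters annotated intron in the 5 libraries, for all clusters, for those with 2 or more conversion locations and for those with 25 or more reads. HuR replicate 1 falls from 58.0% to 23.6% at 25 or more reads, while HuR replicate 2 stays near 60%.

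The intron annotation was compared with GENCODE. Between 89.2% (G20) and 95.1% (HuR replicate 2) of the members had their midpoint in an intron of GENCODE release 44 on the same strand, and every member's deposited sequence matched GRCh37. The largest other class was noncoding exon, with 6.04%, 4.41%, 3.58%, 6.30% and 3.46% in G20, G35, G45 and the HuR replicates. In reverse, of all clusters in GENCODE introns, the deposited location read intron for 59.4%, 64.9% and 62.0% in the slices and 84.6% and 79.4% in HuR. It thus left out more of the slice clusters. By GENCODE, 22.9%, 39.3% and 36.6% of all slice clusters and 62.8% and 71.3% of HuR clusters were intron. Almost none of the members were small RNAs: 6, 4 and 4 clusters overlapped a snoRNA in the slices, and 1 and 8 in the HuR replicates. Those 6 clusters held 1.59% of the member reads of G20.

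Intron clusters were richest in T in HuR and richest in G in G20. Mean T content was 28.4% in G20, 33.5% in G35, 36.4% in G45, 40.2% in HuR replicate 1 and 41.2% in HuR replicate 2, and 36.1% in the Total clusters. Intron sequence as a whole is 30.7% T, so G20 members lay below that level and the others above it. HuR exceeded the slices by 7.96 percentage points (40.7% ± 0.739, SD, n = 2, against 32.8% ± 4.05, SD, n = 3), with no overlap of libraries and the smallest possible exact permutation p of 0.2. Mean G content was 34.4%, 25.3% and 23.6% in G20, G35 and G45 and 13.7% and 14.9% in HuR, compared to 20.8% in intron sequence. Clusters of at least 50% T made up 3.97% of members in G20, 13.8% in G35, 20.8% in G45, 23.4% in HuR replicate 1 and 28.8% in HuR replicate 2. Other clusters of the same library had less T in every case, at 24.7%, 29.6%, 30.7%, 38.9% and 39.2%.

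**Figure D2:**
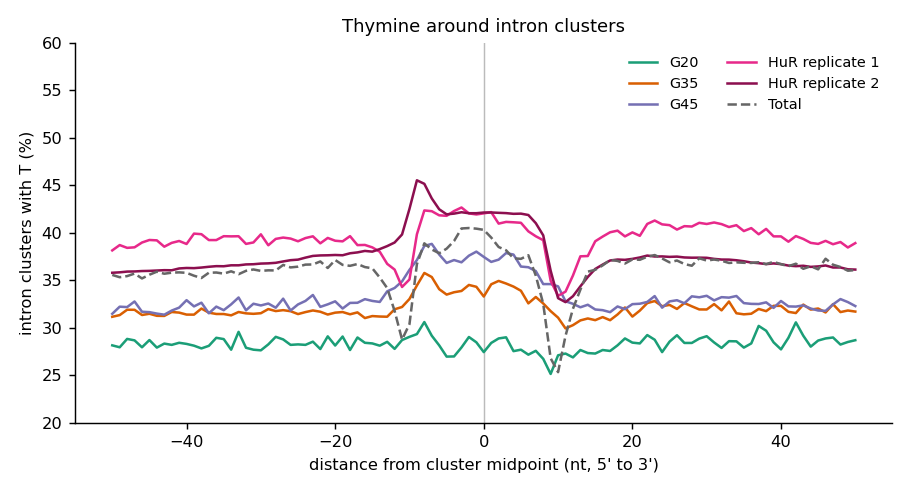
Lines give the percent of intron clusters with T at each position from 50 nt before to 50 nt after the cluster midpoint, by library. T is raised within about 10 nt of the midpoint in all libraries except G20, and in HuR replicate 2 the highest value is 45.5%, 9 nt before the midpoint.

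The raised T was local in G45 and HuR replicate 2 and less so in HuR replicate 1. At the midpoint, 37.5% of G45 members had a T compared to an average of 32.3% at 30 to 50 nt away. These values were 42.1% and 36.5% in HuR replicate 2, and 42.0% and 39.4% in HuR replicate 1. In G20 they were 27.4% and 28.5%, so the clusters did not stand out from their surroundings. Just beyond the ends of the HuR clusters T was lower than further out, as the plot of T by position shows. The last base was G in 49.8%, 62.5% and 50.7% of members in G20, G35 and G45 and in 93.8% and 95.6% in HuR.

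Short T-rich motifs followed the T content. The motif TTTTT, searched on the transcribed strand within a window of 41 nt around the midpoint, was found at 8.23% of members in G20, 18.1% in G35, 22.2% in G45, 26.6% in HuR replicate 1 and 32.9% in HuR replicate 2. Windows of the same size across GENCODE introns held it in 12.6% of cases. HuR was higher than the slices by 13.5 percentage points (exact permutation p = 0.2, no overlap). When TTTTT had to lie in the cluster itself, the libraries overlapped, with 17.4% in G45 and 16.9% in HuR replicate 1. TTTNTTT, which overlaps TTTTT in part, was found at 4.68%, 12.2%, 17.3%, 17.6% and 23.02%, compared to 7.09% of intron windows. ATTTA, the core of AU-rich elements, was found at 4.68%, 9.02%, 10.7%, 12.0% and 14.5%, compared to 8.12%. GGGGG ran the other way, with 11.0%, 5.28% and 3.70% in the slices and 1.82% and 2.54% in HuR, compared to 1.98% of intron windows. The most frequent hexamer was GGGTGG in G20, TTTTTT in G35, G45 and HuR replicate 2, and TTATTT in HuR replicate 1.

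Next, the distance from the cluster midpoint to the nearest splice site was compared. Most members lay deep in introns, with median distances of 1857 nt in G20, 2497.5 nt in G35, 2726.5 nt in G45, 2024 nt in HuR replicate 1 and 2506 nt in HuR replicate 2. Within 100 nt of a splice site lay 9.67%, 5.90% and 5.95% of slice members and 3.47% and 4.48% of HuR members. Over all members HuR was lower than the slices by a difference of -3.20 percentage points (exact permutation p = 0.2, no overlap). Of GENCODE intron bases, 2.70% lie that close. For members with their midpoint in a GENCODE intron the shares were 6.78%, 4.38% and 4.67% in the slices and 2.285% and 3.64% in HuR. On that like set, HuR replicate 1 lay below the intron bases and the other libraries above. Among clusters with 25 or more reads the difference was -0.767 points and the libraries overlapped.

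G20 differed at the 5' side. Of its members, 6.02% lay within 100 nt downstream of a 5' splice site, compared to 3.05% in G35, 2.84% in G45 and 1.71% and 2.13% in HuR. Among members in GENCODE introns these shares were 4.58%, 2.50% and 2.37% in the slices and 1.29% and 1.82% in HuR. Of GENCODE intron bases, 1.41% lie there. All G20 members within 100 nt of a 5' or 3' splice site had 24% T on average, below the 30.1% of G20 members over 1000 nt away. They had 48.5 events per 100 reads compared to 88.6. In HuR replicate 2 T content was 42.6% within 100 nt and 41.5% beyond 1000 nt, and events per 100 reads were 103 and 104.

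At the 3' splice site G35, G45 and HuR replicate 2 had a narrow peak. In the bin from 11 to 20 nt upstream, where the pyrimidine tract lies, were 0.338% of G35 members, 0.454% of G45 members and 0.471% of HuR replicate 2 members. The adjoining bin from 21 to 30 nt held 0.156%, 0.288% and 0.165%. HuR replicate 1 had 0.167% and 0.127% in these bins, and G20 had 0.101% and 0.304%, so G20 had no such peak. The first intron held 33.9%, 29.97%, 29.4%, 27.6% and 28.9% of the members whose transcript could be matched, compared to 23.4% to 24.7% of the bases of those transcripts' introns.

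**Figure D3:**
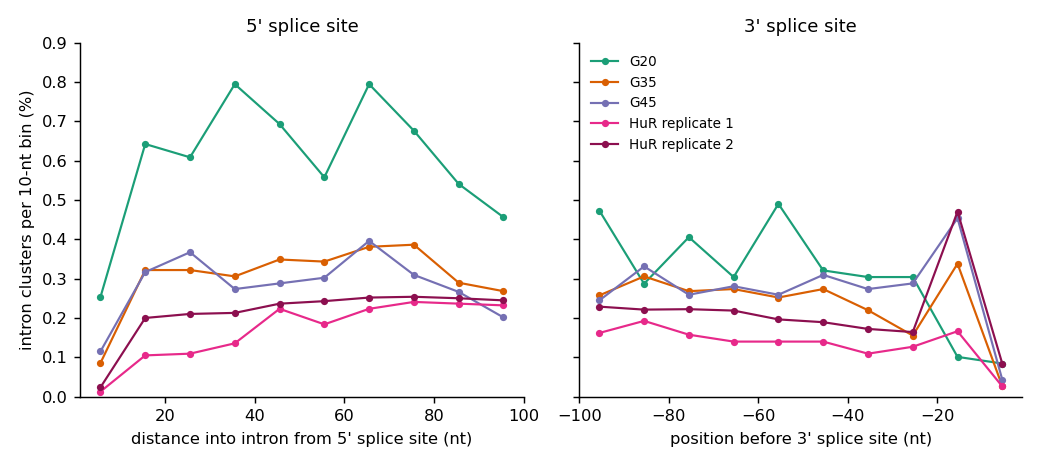
Points give the percent of all intron clusters of a library whose midpoint falls in each 10-nt bin after the 5' splice site (left) and before the 3' splice site (right). Within the 100 nt shown, G20 is highest in every bin after the 5' splice site, and HuR replicate 2, G45 and G35 rise at 11 to 20 nt before the 3' splice site.

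Conversions were then compared. Summed over members there were 82.4, 89.2 and 83.2 events per 100 reads in G20, G35 and G45, 73.3 in HuR replicate 1 and 104 in HuR replicate 2, with 53.6 in Total. The slices lay between the HuR replicates, which differed from each other by more than their mean did from that of the slices (88.6 ± 21.6, SD, n = 2, against 84.9 ± 3.74, SD, n = 3, exact permutation p = 0.8). With introns taken from GENCODE instead, the values were 11.0, 67.8 and 56.5 in the slices and 68.4 and 101 in HuR, which did not overlap (exact permutation p = 0.2). Summed over reads, other clusters had 20.4, 66.2, 57.9, 54.1, 92.2 and 50.9 events per 100 reads in the same order, but these sums rest on few deep clusters, such as 1 of 6990483 reads in G20. The median over clusters was 100 for intron and other clusters alike in G35, G45 and both HuR replicates, 100 and 57.1 in G20, and 33.3 and 22.2 in Total. Median reads per intron cluster did not separate the libraries either, at 8, 7, 7, 6 and 8 (exact permutation p = 1).

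Among clusters with 25 or more reads, how events were spread over a cluster did differ between slices and HuR. A cluster was counted as nearly completely converted when its events reached 90% of its reads times its locations, so that almost every read carried a C at each converted position. Among members with 25 or more reads this held for 51.7% in G20 (95% Wilson interval 48.8 to 54.6, counting error only), 54.7% in G35 (52.3 to 57.0) and 52.0% in G45 (49.8 to 54.2). It held for 12.6% in HuR replicate 1 (10.4 to 15.2), 1.07% in HuR replicate 2 (1.00 to 1.14) and 2.24% in Total (1.64 to 3.06). Since the HuR replicate 1 table has no cluster with 1 location, the shares were also taken over members with 2 or more, and were 21.7%, 29.5% and 21.9% in the slices, 12.6% and 0.208% in HuR and 0.198% in Total. At 5 to 9 reads, where a few events fill a cluster, the shares over all members were 44.9%, 91.3% and 77.0% in the slices. In HuR they were 0.621% and 65.3%. Over members of any depth the shares were 47.6%, 84.8%, 69.3%, 1.21% and 41.6%, so HuR replicate 2 lay near G20. At 100 or more reads and 2 or more locations, HuR replicate 1 had 14.2% (10.4 to 19.0). That interval overlapped those of G20 (17.8%, 13.2 to 23.7) and G45 (18.2%, 14.5 to 22.6), but not that of G35 (24.4%, 19.8 to 29.7). The mean number of locations at 25 or more reads was 1.67, 1.51 and 1.53 in the slices, 4.91 and 6.46 in HuR and 3.89 in Total. Mean T content of the members with 25 or more reads was 29.5%, 30.3% and 30.1% in the slices, 33.4% in HuR replicate 1 and 45.9% in HuR replicate 2. With depth, T content therefore rose in HuR replicate 2 and fell in G35, G45 and HuR replicate 1.

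**Figure D4:**
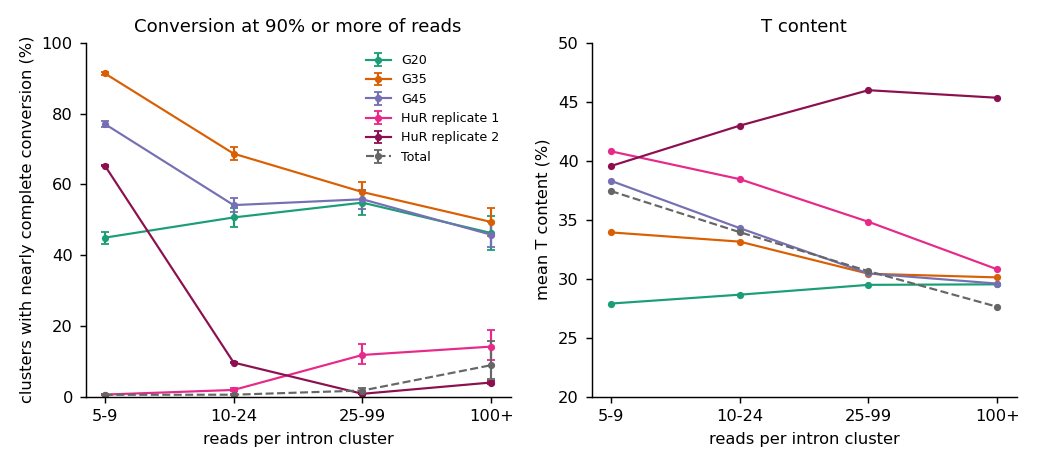
Intron clusters are grouped by reads (5 to 9, 10 to 24, 25 to 99, 100 and over) along the x axes. The left panel gives the percent with nearly complete conversion with 95% Wilson intervals. At 100 reads and over this percent is 46.2%, 49.4% and 45.8% in the slices, 14.2% in HuR replicate 1 and 4.0% in HuR replicate 2. The right panel gives mean T content.

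Some of the intron clusters with the most reads were deep in slices and HuR alike, and some had a nearly fixed number of events per read. RINT1, which encodes a vesicle-tethering factor, had a site 103 nt from a 5' splice site at chr7:105172896-105172918 with 9270, 10441 and 20088 reads in G20, G35 and G45 and 5998 and 17580 in HuR, and none in Total. Its events per read were 1.01, 1.02, 1.01, 1.02 and 1.01. SLC38A8, an amino acid transporter gene, had 8692, 3306, 21011, 402 and 10901 reads in the same order, 143 in Total, and between 1.93 and 1.99 events per read in all 6 libraries. PPP2R2C, a regulatory subunit of the phosphatase PP2A, had 3636, 7647, 7358, 3686 and 8585 reads with 0.997 to 1.00 events per read. The ABCA13, TTC7A and CEP85 sites had 1.00, 0.999 to 1.00 and 1.68 to 1.84 events per read. At these sites the libraries differed widely in reads and little in events per read.

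Other deep sites had fewer events per read, with BICC1 as the exception. ZNF229, a zinc finger gene, had the deepest member of each slice and of HuR replicate 2, with 34942, 82595, 70943, 6061 and 50877 reads, 5 in Total and 0.419 to 0.506 events per read in the pulldowns. DIS3L2, a 3' to 5' exonuclease gene, had 6117, 17264, 13098, 2045 and 9262 reads but only 0.00293 to 0.00691 events per read. HuR replicate 1 had its deepest members at ARL15, with 29240 reads and 0.160 events per read, and at DISC1, with 18500 reads and 0.122, and the slices had 2624 to 8170 and 251 to 970 reads there. BICC1, an RNA-binding protein gene, had 9058 reads in G20, 90 in G35, 203 in G45, 1 and 60 in HuR and 1723 in Total. Its events per read were 1.01 in each slice, 1.05 in HuR replicate 2 and 0.994 in Total. The 10 deepest members held 25.7%, 24.3%, 23.2% and 21.1% of member reads in G20, G35, G45 and HuR replicate 1, but 1.11% in HuR replicate 2. These sites were chosen by their reads. Whether the reads came from the intron named, or from another RNA, human or not, mapped there with T-to-C mismatches, was not tested, and their sequences are not shown for that reason.

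Members were merged across libraries into 924025 intervals to see which were shared. Of these, 454 held an intron cluster in all 5 libraries, 18644 in both HuR replicates, and 13242 in both HuR replicates with no read of any slice on that strand. The 454 shared intervals held 47.3%, 45.9% and 47.5% of the member reads of G20, G35 and G45 and 56.0% of those of HuR replicate 1, but 2.48% in HuR replicate 2. Members in them had 32.1% to 32.3% T and 30.6% to 30.9% G in every library. These values are alike by construction, because the shared intervals are the same places in the genome. Members in both HuR replicates without slice reads had 40.9% and 40.97% T, 11.8% and 12.8% G, and 4.05 and 5.15 locations on average. The set was defined by presence and depth, so these values describe it and were not tested.

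**Figure D5:**
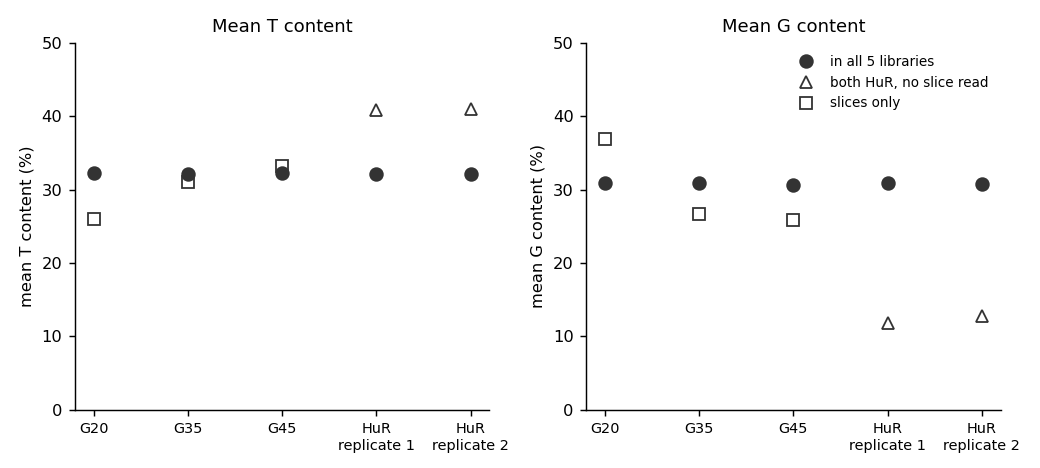
Symbols give mean T content (left) and mean G content (right) of intron clusters by library, for intervals in all 5 libraries, for those in both HuR replicates with no slice read, and for those in slices only. The shared intervals, which are the same places in every library, lie near 32% T and 31% G. The HuR intervals without slice reads lie near 41% T and 12% G.

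Of the intervals in both HuR replicates without slice reads, the leading 5 by reads lay in METTL10, NUP153, PRRC2C, MMS22L and LSM14A. Their reads were 150 and 402 at METTL10, 77 and 284 at NUP153, a nuclear pore gene, 49 and 141 at PRRC2C, 49 and 78 at MMS22L, a replication repair gene, and 48 and 134 at LSM14A, a gene of the P-body. Total had 6, 8, 8, 21 and 52 reads at them. Events per read were 0.898 to 0.979 in HuR replicate 1 and 0.761 to 1.10 in HuR replicate 2, whereas in Total they were 0.125 to 0.75. The NUP153 and PRRC2C sites were 78 nt from a 5' and 94 nt from a 3' splice site. MMS22L is shown because its cluster was short and lay in a GENCODE noncoding exon, although the table calls it intron.
MMS22L, chr6:97718664-97718685 (-): atgacccatacTTTTcccatcg

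Slice reads were found at 25.6% of the intron clusters of HuR replicate 1 and at 8.17% of those of HuR replicate 2. The mean was 16.9% ± 12.3 (SD, n = 2), so the replicates differed strongly, and at 25 or more reads the shares were 81.0% and 24.6%. HuR members with slice reads had 17.3% and 20.3% G in replicates 1 and 2, compared to 12.5% and 14.4% for those without, while T content was 41.2% and 40.3% compared to 39.9% and 41.3%. From the other side, 81.9% of G20, 60.1% of G35 and 72.9% of G45 intron clusters had HuR reads. These shares cover intron clusters only, so they do not compare introns with the other clusters of a library. G35 and G45 members with HuR reads held TTTTT in 22.7% and 25.7% of cases compared to 11.3% and 12.9% without, and in G20 the values were 8.83% and 5.52%.

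Agreement between libraries was described over merged intervals present in both. Pearson's r of log2 reads was 0.835 to 0.886 between slices (n = 2649 to 3740) and 0.377 between the HuR replicates (n = 18644). With the slices it was 0.667 to 0.750 for HuR replicate 1 (n = 681 to 1072) and 0.577 to 0.752 for HuR replicate 2 (n = 3564 to 7152). The 90th percentile of reads per HuR replicate 1 member was 25 where slices had reads and 11 where they had none. Each pair rests on other intervals with other depths, so these values of r do not rank the pairs. Intervals are not independent replicates, and the values describe only intervals with a cluster in both libraries. Of the HuR replicate 1 members, 82.6% overlapped an intron cluster of HuR replicate 2, which had 900898 of them.

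Total clusters lay on 7.56%, 3.83% and 3.92% of slice members, 19.7% of HuR replicate 1 members and 3.49% of HuR replicate 2 members. Other clusters were overlapped more often in every library, at 19.9%, 7.99%, 7.54%, 38.6% and 6.15% in the same order. The difference between HuR and slices (11.6% ± 11.4, SD, n = 2, against 5.10% ± 2.13, SD, n = 3) was within the spread between the HuR replicates (exact permutation p = 0.8). Any Total read was found at 34.9%, 23.5%, 24.6%, 61.1% and 26.7% of members. The overlapping Total clusters had 32.7% A and 6.28% G, and TTTTT in 18.7% of windows. Median events per 100 reads of a cluster were 33.3 where slices had reads and 31.8 where they had none.

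Host genes were those named in the deposited tables. Intron clusters lay in 3769 genes in G20, 7135 in G35, 6272 in G45, 4309 in HuR replicate 1 and 13520 in HuR replicate 2, with 1585 genes in all 5. Of 4294 genes with intron clusters in both HuR replicates, 3791 (88.3%) also had one in a slice, which is 42.1% of the 9011 slice genes. Between 46.7% and 50.1% of the host genes of each slice had an intron cluster in HuR replicate 1, and between 96.9% and 97.8% had one in HuR replicate 2.

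The genes with the most intron clusters included long genes in the slices and in HuR replicate 2, but also shorter ones. Counts here were not scaled to the number of members of a library. AUTS2, a gene of 1195 kb, had 11, 41 and 25 clusters in G20, G35 and G45 and 63 and 2496 in HuR. LRP1B, a lipoprotein receptor gene of 1900 kb, had 8, 38 and 25 in the slices and 19 and 1812 in HuR, and CNTNAP2, a neuronal cell adhesion gene of 2305 kb, had 12, 23, 25, 2 and 89. HuR replicate 1 was led by EIF4G3, a translation initiation factor gene, with 125 clusters, by POLA1, the catalytic subunit of DNA polymerase alpha, with 119, and by HELLS, a chromatin remodelling helicase gene, with 97. The slices had 2, 14 and 14 clusters in EIF4G3, 6, 27 and 7 in POLA1, which was also among the leading 5 of G35, and 2, 9 and 9 in HELLS. TMPRSS3, a protease gene of 24.2 kb, stood out for its length, with 13, 32 and 31 clusters in the slices and 6 and 430 in HuR.

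Gene lists with roles in splicing and RNA binding were compared by library. Of 25 hnRNP genes, which encode abundant nuclear RNA-binding proteins, 15, 18 and 12 had an intron cluster in G20, G35 and G45, and 18 and 23 in HuR. HNRNPC, whose protein binds U tracts, had 0, 8 and 5 clusters in the slices and 66 and 449 in HuR. PTBP2, a pyrimidine tract-binding protein gene, had 2, 5 and 5 against 52 and 536. PCBP2, whose protein binds C-rich sequence, had 4, 6 and 3 against 32 and 233. As shares of library members, PCBP2 held 0.0676%, 0.0322% and 0.0216% in the slices, 0.140% in HuR replicate 1 and 0.0259% in HuR replicate 2. PTBP2 held 0.0338%, 0.0268%, 0.0360%, 0.228% and 0.0595% in the same order, and HNRNPC 0%, 0.0430%, 0.0360%, 0.289% and 0.0498%. Some other hnRNP genes did not have more clusters in HuR replicate 1 than in every slice. HNRNPL had 5, 5 and 2 in the slices against 4 and 65 in HuR, and HNRNPUL1 had 3, 7 and 2 against 1 and 100. The hnRNP genes together held 0.626%, 0.365% and 0.259% of slice members and 1.28% of those of HuR replicate 1, but 0.308% in HuR replicate 2.

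Of 14 SR genes, which encode splicing factors, 6 had an intron cluster in each slice and 7 and 12 in HuR. SRSF11 had 0, 0 and 3 clusters in the slices against 25 and 253 in HuR. SRSF4 had 3, 7 and 4 against 23 and 185, and TRA2B had 1, 2 and 2 against 20 and 177. SRSF5 had 1, 0 and 0 against 0 and 5. As shares of library members, SRSF4 held 0.0507%, 0.0376% and 0.0288% in the slices, 0.101% in HuR replicate 1 and 0.0205% in HuR replicate 2. SRSF11 held 0%, 0%, 0.0216%, 0.110% and 0.0281% in the same order, and TRA2B 0.0169%, 0.0107%, 0.0144%, 0.0877% and 0.0196%. As shares of all members the SR genes held 0.186%, 0.0859% and 0.108% in the slices, 0.416% in HuR replicate 1 and 0.104% in HuR replicate 2, so the share in replicate 2 lay within the range of the slices. Spliceosome genes held a cluster in 10, 11 and 8 of 22 cases in the slices and in 12 and 22 in HuR, led by the helicase gene DHX15 with 30 and 309 clusters in HuR. The spliceosome genes together held 0.254%, 0.145% and 0.101% of members in the slices and 0.381% and 0.153% in HuR. Genes of AU-rich element binding proteins held a cluster in 6, 9 and 8 of 14 cases in the slices and 9 and 13 in HuR. snoRNA host genes did so in 4, 7 and 5 of 26 cases in the slices and 6 and 15 in HuR. By comparison, 16.9%, 31.8% and 28.0% of all 20149 protein-coding genes had an intron cluster in the slices and 19.4% and 59.7% in HuR, so the hnRNP, SR, spliceosome and AU-rich element lists stood above that share in all 5 libraries. Gene length and expression were not matched.

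The 19 long genes of the list, many of them at common fragile sites, differed between the HuR replicates. All 19 had an intron cluster in every slice and in HuR replicate 2, but 15 had one in HuR replicate 1. Together they held 1.64%, 1.55% and 1.73% of the slice members, 1.48% of those of HuR replicate 2 and 0.644% of those of HuR replicate 1. PRKG1, a cGMP-dependent kinase gene, had 2, 17 and 16 clusters in the slices and 31 and 2079 in HuR, whereas IMMP2L, DLG2, MAGI2 and PARK2 had none in HuR replicate 1 and between 113 and 856 in HuR replicate 2. Fewer clusters in a gene and less pre-mRNA of that gene cannot be told apart in these data.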

How the data were processed

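Per the labels and the methods of the study, single reads of 50 bp were mapped to hg19 with Bowtie. The authors built groups and clusters in PARalyzer from reads that mapped once, allowing 2 T-to-C mismatches. The study defines a cluster by a minimum of 2 conversion locations and 5 reads. The deposited clusters of the slices, HuR replicate 2 and Total also include some with 1 location, which were kept here. Reads, conversion locations and conversion events were deposited as raw counts. The deposited score column (a mode score) was not used. Removal of PCR duplicates is not stated. Intron clusters were rows whose deposited location reads intron. Members, gene lists and tests were chosen with earlier results of these data known. Positions and splice sites came from GENCODE release 44 mapped to GRCh37. Overlaps needed 1 bp on the same strand. Splice distance used all transcripts and the cluster midpoint, and motifs a 41-nt window. HuR replicates were compared with the slices by exact two-sided permutation tests over libraries in scipy, with Benjamini-Hochberg adjustment over 7 comparisons. Intervals are 95% Wilson intervals.

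Named genes were the 5 host genes with the most clusters per library and list members. 1 gene that this rule picks is not reported here. Named sites were the 3 deepest clusters per library, 5 intervals in all 5 libraries and 5 in both HuR replicates without slice reads, and some clusters were chosen after their values were seen, as stated. The gene lists were SR, hnRNP, AU-rich element binding, snoRNA host, long and spliceosome genes. Functions for overlaps and nearest sites were tested on simulated data. Scripts ran in Python 3.11.15 with scipy 1.17.1, matplotlib 3.10.9, numba 0.67.0, numpy 2.4.6 and pandas 2.3.3.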

Additional observations from a re-analysis of the deposited data

Results flagged for a closer look

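Intron clusters differed from the other clusters of their library in opposite directions in slices and HuR for a pair of measures, and neither difference was tested. GGGGG windows were more frequent in intron clusters than in other clusters by 3.08 percentage points in G20, 0.929 in G35 and 0.0801 in G45, whereas in the HuR replicates the differences were -0.945 and -0.124 points. Nearly complete conversion among clusters with 25 or more reads was more frequent in intron clusters by 18.6 points in G20, 3.62 in G35 and 4.80 in G45, whereas in the HuR replicates the differences were -1.68 and -5.56 points.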

How the results depend on the processing

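The 7 comparisons of HuR with the slices had 48 alternatives, of which 44 kept their direction, with exact permutation p between 0.2 and 1, so none could pass 0.05. Percent intron, T content, TTTTT and distance to splice sites kept their direction throughout. Leaving out either HuR replicate gave differences of -11.6 to 18.9 events per 100 reads, -1.33 to 0.667 median reads and -1.62 to 14.6 percentage points of Total overlap, which thus turned with the replicate. Median reads also turned, to 0.333, with 2 or more conversion locations. Introns by GENCODE gave a difference of 39.6 events per 100 reads in place of 3.66, with 11.0 events in G20. The share of HuR members with slice reads was 52.8% at 25 or more reads and 4.14% with slice clusters in place of groups, and 8.17% to 25.6% for either replicate alone. Host genes with 2 or more intron clusters numbered 11941 in place of 13934, and 432 in place of 1585 in all 5 libraries. The alternative without nearly completely converted clusters was chosen after seeing the data, and in it TTTTT overlapped between libraries (30.6% in G45, 26.8% in HuR replicate 1). The cause of these changes was not tested. No paired analysis was possible because only HuR has replicate numbers. Each slice and Total is 1 library, so nothing measures their spread, and HuR replicate 2 had far more clusters than replicate 1.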
